A study of Mus musculus with 12 samples.

Results

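Heat-shock proteins and the cytosolic chaperones that work with them were followed as 1 set of 40 genes in mouse hearts. A gene was a member if its symbol was on a list of chaperones, co-chaperones and heat-shock factors, whatever its signal. The 40 genes had 83 of the 56605 probes of the array, and 75 of these were among the 30859 probes bright enough to test, so that all 40 genes were tested. Each gene is described by its brightest tested probe unless another is named.

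The hearts came from male C57BL6/J mice aged 5 months, and total RNA of heart muscle was read on single-colour Agilent arrays with 3 arrays in each of 4 groups. Control mice (C) received vehicle, C + P mice received pargyline, an inhibitor of monoamine oxidase, at 50 mg/kg per day for 12 weeks, and D mice received streptozotocin, a toxin of pancreatic beta cells, intraperitoneally at 50 mg/kg per day for 5 days. D + P mice received both agents and D mice vehicle in place of pargyline, and all animals were of one sex and one inbred strain without an engineered allele named in the labels. Diabetes here is a chemical model of insulin deficiency, and RNA of heart muscle mixes myocytes with the other cells of the tissue. Tests across probes were made with limma, and n = 3 arrays per group throughout.

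Chaperones bind unfolded protein and keep it from clumping. Hsp70 proteins do so in cycles of ATP hydrolysis that J-domain proteins start and that Hsp110 and Bag proteins reset, Hsp90 matures kinases and steroid receptors together with its own co-chaperones, and small heat-shock proteins hold unfolded client proteins without ATP. In striated muscle several small heat-shock proteins are abundant and sit at the sarcomere. Under heat, oxidants or other protein stress the factor Hsf1 binds heat-shock elements, which are inverted repeats of a short unit, and raises the inducible members of every class.

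Of the 40 members, 16 are known as inducible by stress, namely Hspa1a, Hspa1b, Hspa8, Hsp90aa1, Hsph1, Dnajb1, Dnaja1, Hspb1, Cryab, Bag3, Hspd1, Hspe1, Chordc1, Stip1, Ahsa1 and Fkbp4. This list, like that of the members, was chosen with earlier results of these data known. RefSeq promoter windows of 300 bases (assembly GRCm38.p6, 250 bases before and 50 bases after each start) were found for 33 of the 40 members and for 13 of the 16 inducible ones. No window was matched for Cryab, Hsf1, Hsp90aa1, Hsp90ab1, Hspa8, Hspa9 and Hspb2. Each window was searched for the facing pair of units GAANNTTC and for the opposed pair TTCNNGAA, both of which read the same on either strand. A 3-unit element was counted where a facing and an opposed pair overlapped by sharing their middle unit. At least 1 pair lay in a window of 10 of the 13 inducible genes (76.9%), of 7 of the 20 other members (35.0%) and of 4587 of all 27025 genes with a window (17.0%). A 3-unit element was found for 4 inducible genes (30.8%), namely Chordc1, Hspd1, Hspe1 and Hsph1, for 1 other member, Dnajb6, and for 179 of all genes (0.662%). A match is a description of these letters and not evidence of binding, and its absence says only that the letters are not in this window.

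Stretches from 7 inducible members are shown 5′ to 3′ with the units in capitals. Hsph1, Dnaja1, Hspa1a and Fkbp4 are shown because each was among the 4 members with the lowest p in at least 1 contrast below, and Hspb1, Hspe1 and Chordc1 because they show other arrangements of the units.
Hsph1, chr5:149636288-149636314, minus strand: taaaatgctgcagaTTCtgGAAagTTC
Dnaja1, chr4:40722330-40722365, plus strand: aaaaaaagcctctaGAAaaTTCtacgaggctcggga
Hspa1a, chr17:34972239-34972274, minus strand: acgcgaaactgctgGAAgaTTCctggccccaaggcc
Fkbp4, chr6:128438786-128438821, minus strand: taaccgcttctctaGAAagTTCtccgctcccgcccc
Hspb1, chr5:135887788-135887843, plus strand: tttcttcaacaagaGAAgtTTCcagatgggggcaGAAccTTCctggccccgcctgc
Hspe1, chr1:55088045-55088090, plus strand: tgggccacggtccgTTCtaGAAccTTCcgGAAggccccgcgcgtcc
Chordc1, chr9:18292249-18292285, plus strand: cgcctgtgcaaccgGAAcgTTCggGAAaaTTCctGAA
In Hsph1 the 3-unit element began 16 bases after 1 of its 2 annotated starts and 37 bases after the other. The pair began 124 bases before the start in Dnaja1, 104 bases before it in Hspa1a and 151 bases before it in Fkbp4. Hspa1b, the near-identical neighbour of Hspa1a, had the same 36 bases at the same distance from its start. Hspd1 and Hspe1, which encode the mitochondrial chaperonin and its lid, are transcribed away from each other, and the same 46 bases, read on opposite strands, held the elements of both. The run of units in Chordc1 spanned its start. The pair of Bag3, which began 43 bases after its start, and the further pairs of Hsph1 and Chordc1 lie outside the stretches shown.

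**Figure D1:**
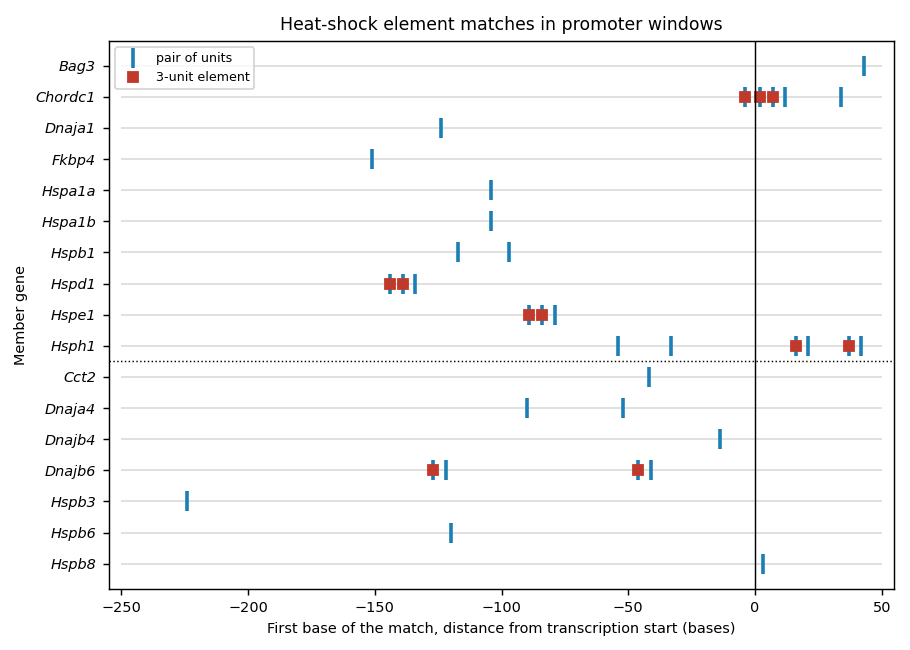
Position of each match in the promoter windows of the 17 members with at least 1 match, as the distance in bases of its first base from the transcription start (x axis), with 1 line per gene. Blue marks are pairs of units and red squares are 3-unit elements, genes above the dotted line belong to the inducible list, and genes with 2 annotated starts show a match once for each start whose window holds it.

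No member passed an adjusted p of 0.05 in any of the 7 contrasts by limma with Benjamini-Hochberg adjustment over all 30859 probes. The share of all probes that passed was 0.00648% in D versus C, 0.0454% in D + P versus C + P, 0.107% for diabetes averaged over pargyline, 0.0324% in C + P versus C, 0% in D + P versus D, 0.0551% for pargyline averaged over diabetes and 0.00648% in the interaction. The lowest adjusted p among the 40 genes was 0.185 for diabetes averaged over pargyline, 0.186 in D + P versus C + P and 0.283 for pargyline averaged over diabetes. In the remaining contrasts it was 0.355 in D versus C, 0.405 in D + P versus D, 0.639 in the interaction and 0.915 in C + P versus C. The methods' t-test on the same values passed 0 or 1 of the 30859 probes after adjustment in each of the 4 pairwise contrasts, none of them a member, so its count of 0 members says nothing about them. The values below are therefore differences that did not pass the test across the array, and a p that misses the threshold does not show that levels were equal.

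**Figure D2:**
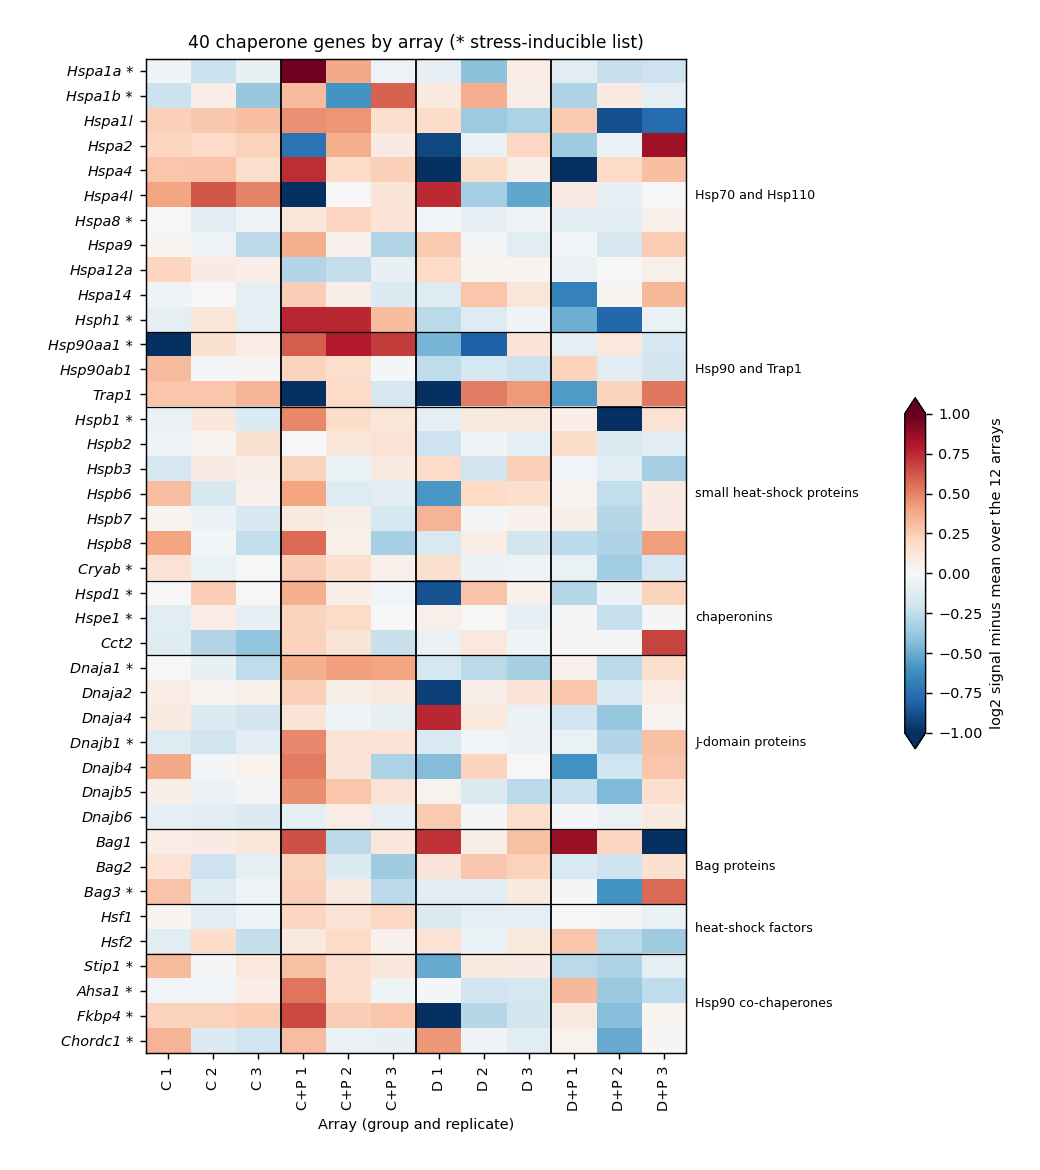
Signal of the 40 members on each of the 12 arrays as log2 signal minus the gene's mean over the arrays (colour, cut at 1 and -1), with genes in rows by role and arrays in columns by group. Asterisks mark the inducible list, and most inducible genes are above their mean on the 3 C + P arrays, while Hspa4, Trap1 and Bag1 show single arrays far from the rest.

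By group mean, most inducible members were highest in control mice on pargyline. Of the 16 inducible genes, 13 peaked in C + P by group mean (81.2%), against 9 of the 24 other members (37.5%) and 24.5% of all tested probes. Since the list of 16 was chosen with earlier results of these data known, this split is a description and not an independent test. The median deviation of the 16 genes from their own 12-array means was 0.36, 0.18 and 0.12 on the log2 scale on the 3 C + P arrays. It was -0.02, -0.02 and -0.06 on the C arrays, -0.10, -0.07 and -0.03 on the D arrays, and -0.07, -0.30 and -0.003 on the D + P arrays. The C + P arrays lay above every other array in this measure. For the 24 other members the same median ran from -0.04 to 0.22 in C + P and from -0.13 to 0.08 in the other groups, and the groups overlapped. Of the 40 members together, 22 peaked in C + P and 1 in D + P.

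**Figure D3:**
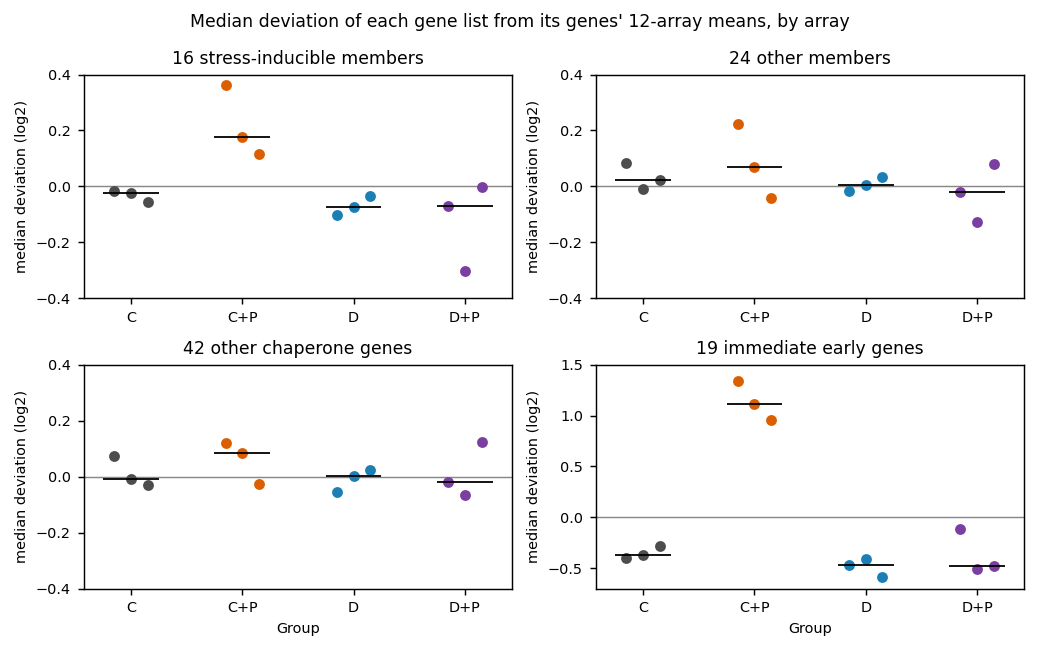
Median deviation of each gene list from its genes' 12-array means (y axis, log2 units) on each array, by group (x axis), with a black bar at the median of the 3 arrays. The 16 inducible members are highest on the 3 C + P arrays (0.12 to 0.36), the 24 other members and 42 further chaperone genes overlap between groups, and 19 immediate early genes, on a wider axis, are between 0.96 and 1.34 on the C + P arrays.

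Diabetes in mice on pargyline (D + P versus C + P) was compared on 1 slide. All arrays of mice with diabetes lay in the second row of their slide and all others in the first, so that diabetes and slide row cannot be told apart in this contrast, in D versus C or for diabetes averaged over pargyline. Of the 40 members 33 were lower in D + P, against 49% of all probes below 0, and the median change was -0.21 on the log2 scale against a median within 0.01 of 0 for all probes. Without C + P replicate 1 the members' median was -0.13. An unadjusted p under 0.05 was reached by 8 members, all lower, where 7.46% of all probes reached it in either direction and 3.79% on the lower side. The arrays of the 2 groups did not overlap for 11 members, 10 of them lower and 1 higher, where 13.9% of all probes did not overlap. The inducible genes account for most of these. All 16 were below 0, with a median of -0.33 and a range from -1.06 to -0.04, 6 reached an unadjusted p under 0.05 and 9 had D + P arrays wholly below the C + P arrays. Of the 24 other members 17 were below 0, with a median of -0.13, 2 reached an unadjusted p under 0.05 (Hspa1l and Dnajb5), and 1 lay wholly below, which was Hsf1. In each of the 23 alternative fits at least 15 of the inducible genes tested were below 0, and their median lay between -0.40 and -0.23. Fits without a C or D array, the methods' t-test and the fit without a filter on dim probes leave these changes as they were by construction. They are therefore no check, and the replicate block can hardly move the changes either. The count of inducible genes with an unadjusted p under 0.05 was 2 without C + P replicate 1, 3 without C + P replicate 2, 2 without D + P replicate 2, 2 with normexp background correction and 3 with dim values set to missing. Shares of all probes in these fits are not given.

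Pargyline in control mice (C + P versus C) gave the opposite sign, and since this contrast uses the same C + P arrays its values are not a second observation of the pattern. Of the 40 members 8 were below 0, against 51% of all probes, and the median change was 0.09, which fell to 0.02 without C + P replicate 1 and was 0.18 without C + P replicate 3. The threshold of unadjusted p under 0.05 was reached by 7 members (4.43% of all probes), 5 of them higher (1.95% of all probes) and 2 lower. The 5 higher ones were Hspa1a, Hsph1, Hsp90aa1, Dnaja1 and Dnajb1, all of the inducible list, and the 2 lower ones were Hspa4l and Hspa12a. Arrays did not overlap for 8 higher members (Hspa8, Hsph1, Hsp90aa1, Hspb1, Dnaja1, Dnajb1, Dnajb5 and Hsf1) and for 3 lower ones (Hspa4l, Hspa12a and Trap1), where the share over all probes was 15.4%. Of the inducible genes 15 were above 0, with a median of 0.21, and Bag3 was at -0.02. Their median stayed between 0.14 and 0.30 over the 23 alternative fits, though fits without a D or D + P array could not move it. The number with an unadjusted p under 0.05 fell to 3 without C + P replicate 1, any 1 of the C arrays or D + P replicate 1. It also fell to 3 with normexp background correction, and to 1 with dim values set to missing. Shares of all probes in these fits are not given. C and D arrays lay on one slide and C + P and D + P arrays on another, so that pargyline and slide cannot be told apart in this contrast, in D + P versus D or for pargyline averaged over diabetes.

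In mice without pargyline (D versus C) the members stood close to the rest of the array. Of the 40 members 24 were below 0 (51.1% of all probes), with a median change of -0.08, and 1 member, Fkbp4, reached an unadjusted p under 0.05, where 10.8% of all probes did. By the methods' t-test 3 members reached it (11.4% of all probes), 2 higher and 1 lower, without Fkbp4, and with array weights 4 did (18.9% of all probes). Arrays did not overlap for 3 higher members (Hspa1b, Cct2 and Dnajb6) and for 4 lower ones (Hspa1l, Hsp90ab1, Hspb2 and Fkbp4), and for 22.3% of all probes. The sign of the median was not stable, since it was 0.06 with 75th percentile scaling and 0.02 with normexp background correction, and it was within 0.001 of 0 without C replicate 1. Pargyline in diabetic mice (D + P versus D) gave 22 members below 0 (50.1% of all probes) and 0 members with an unadjusted p under 0.05 by limma, where 13.3% of all probes reached it, and 1 by the methods' t-test, where 8.34% did. Only Hsf1 lay wholly higher and only Cryab wholly lower there among the 40 members, where 17% of all probes did not overlap.

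Averaged over pargyline, 31 of the 40 members were lower with diabetes (51.5% of all probes), with a median of -0.13 that was -0.08 without D + P replicate 2 and -0.22 with dim values set to missing, where the median of all probes moved to -0.15. An unadjusted p under 0.05 was reached by 6 members, all lower, where 11.4% of all probes reached it and 5.46% on the lower side. These were Hspa1l, Hsph1, Dnaja1, Dnajb5, Stip1 and Fkbp4. Averaged over diabetes, Hsp90aa1 and Dnaja1 were higher with pargyline at an unadjusted p under 0.05, that is 2 members where 10.2% of all probes reached it. The interaction, which is the diabetes effect with pargyline minus that without it, was below 0 for 28 members (50.4% of all probes) with a median of -0.21, and 1 member, Hsph1, reached an unadjusted p under 0.05, where 7.03% of all probes did. With 75th percentile scaling that median was -0.34, and with dim values set to missing it was -0.04, while the median of all probes moved to 0.23.

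**Figure D4:**
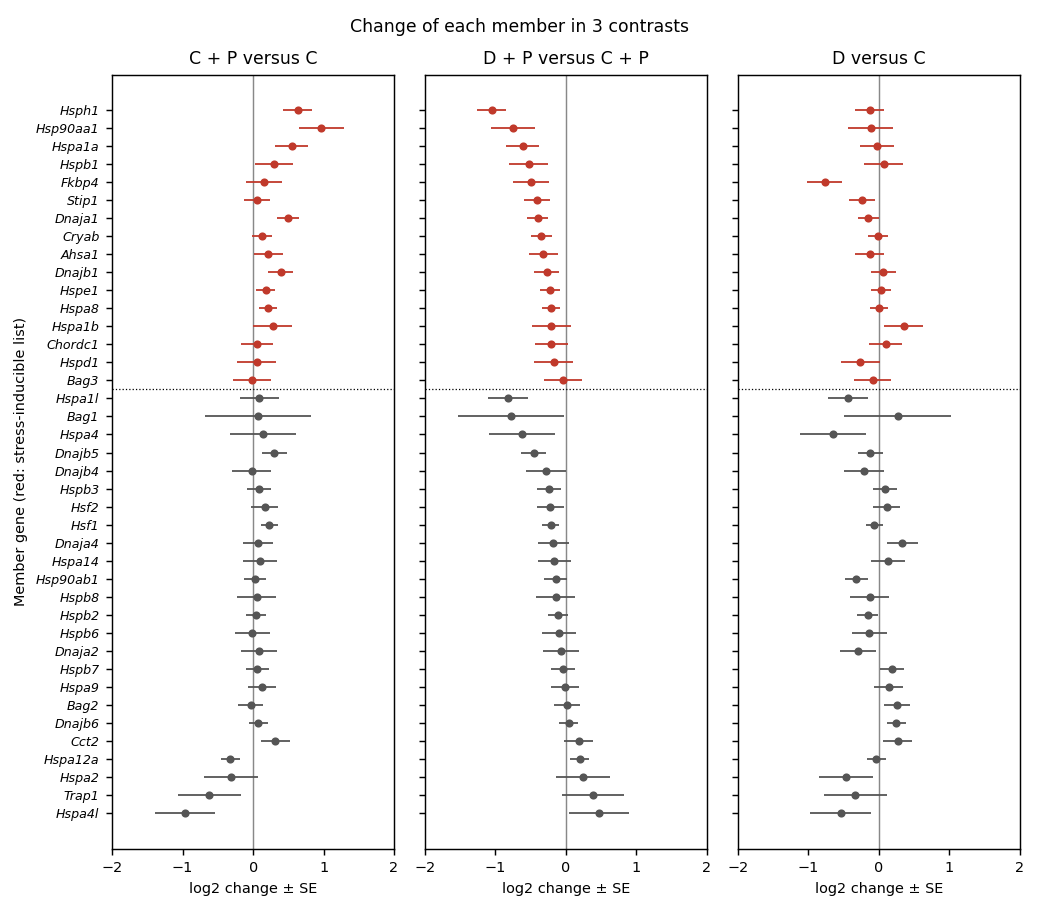
Log2 change with its SE (x axis) of each of the 40 members (y axis) in C + P versus C, D + P versus C + P and D versus C, with inducible genes in red above the dotted line and both sets sorted by the middle contrast. All 16 inducible genes lie below 0 in D + P versus C + P, 15 lie above 0 in C + P versus C, and in D versus C they scatter around 0 apart from Fkbp4.

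Among the Hsp70 and Hsp110 genes the largest difference was that of Hsph1, the Hsp110 protein that releases ADP from Hsp70. Its log2 signal was 9.49, 9.71 and 9.49 in C, 10.35, 10.34 and 9.90 in C + P, 9.31, 9.45 and 9.55 in D and 9.09, 8.80 and 9.52 in D + P. The 3 C + P arrays were the highest of the 12, and no array of D + P reached them. Hsph1 was lower in D + P relative to C + P by a log2 change of -1.06 (SE 0.205, 95% interval -1.51 to -0.60), or 2.08-fold, with a limma p of 0.000355 and an adjusted p of 0.186. It was higher in C + P than in C by 0.63 (SE 0.205, adjusted p = 0.997), and the interaction was -0.93 (SE 0.29, adjusted p = 0.639). With the mean of all 3 probes of the gene these values were 0.26 and 0.08, the second of opposite sign. A separate Hsph1 probe read 8.72, 8.96 and 8.55 in C, 9.52, 9.60 and 9.14 in C + P, 7.01, 8.45 and 8.52 in D and 8.45, 7.80 and 8.48 in D + P. It gave -1.17 (SE 0.37) in D + P versus C + P, again with C + P highest, while the third probe was well above background on only 1 array of 12 and gave 1.19 (SE 0.55). With array weights, the brightest probe passed in D + P versus C + P with an adjusted p of 0.0434. Over all alternatives the change ran from -1.25 to -0.35 with adjusted p up to 0.762, and the smallest change was that of the mean of the 3 probes.

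Hspa1a, the classical heat-inducible Hsp70, read 6.62, 6.45 and 6.60 in C, 7.64, 7.05 and 6.62 in C + P, 6.59, 6.26 and 6.74 in D and 6.56, 6.44 and 6.46 in D + P. C + P replicate 1 was far above the rest and C + P replicate 3 lay within the range of the C arrays and of the D arrays. It was lower in D + P relative to C + P by -0.62 (SE 0.24, adjusted p = 0.619) and higher in C + P than in C by 0.55 (SE 0.24, adjusted p = 1). Without C + P replicate 1 these changes were -0.35 and 0.28, and the first was -0.265 with normexp background correction. The copy Hspa1b was well above background on 7 of 12 arrays only and gave -0.21 (SE 0.28) and 0.28 (SE 0.28) in the same contrasts, and whether these near-identical transcripts share signal was not tested. Hspa1l, a testis-enriched member of the family in the same gene cluster, read 6.62, 6.65 and 6.68 in C, 6.84, 6.82 and 6.56 in C + P, 6.56, 6.01 and 6.06 in D and 6.64, 5.50 and 5.61 in D + P. D replicates 2 and 3 and D + P replicates 2 and 3 were the 4 lowest arrays, and both replicate 1 arrays of the diabetic groups lay close to the controls. It was lower in D + P relative to C + P by -0.82 (SE 0.28, adjusted p = 0.551) and lower with diabetes averaged over pargyline by -0.63 (SE 0.20, adjusted p = 0.282). The averaged value passed with array weights (adjusted p = 0.0347) and without D + P replicate 1 (adjusted p = 0.0441). With normexp background correction it was -0.28, with the highest adjusted p of all alternatives (0.524), and the change in D + P versus C + P was then -0.38.

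Hspa8, the heat-shock cognate Hsp70, which is made at all times and raised further by stress, had the brightest probe of the class and read 14.40, 14.29 and 14.37 in C, 14.52, 14.61 and 14.54 in C + P, 14.37, 14.32 and 14.37 in D and 14.30, 14.29 and 14.45 in D + P. All C + P arrays were above all others by a small margin. The change was 0.21 (SE 0.12) in C + P versus C and -0.21 (SE 0.12) in D + P versus C + P. Of its 3 other probes 1 gave 0.43 (SE 0.15) and -0.32 (SE 0.15) in these contrasts, and the 2 remaining probes gave 0.07 and 0.14 in D + P versus C + P. Hspa12a, a distant relative of Hsp70, ran the other way with 10.15, 10.01 and 9.998 in C, 9.64, 9.69 and 9.85 in C + P, 10.13, 9.96 and 9.96 in D and 9.87, 9.92 and 9.98 in D + P. Its C + P arrays were the 3 lowest, with -0.33 (SE 0.13) in C + P versus C and 0.20 (SE 0.13) in D + P versus C + P. Hspa4l, an Hsp110 relative, read 9.53, 9.75 and 9.63 in C, 7.60, 9.13 and 9.26 in C + P, 9.88, 8.79 and 8.61 in D and 9.21, 9.05 and 9.13 in D + P on its brightest probe. C + P replicate 1 stood far below the others, and the change of -0.97 (SE 0.43) in C + P versus C was not shared by its 3 other probes, which gave 0.16, 0.43 and 0.16. Without that array the change was -0.44. The brightest Hspa4 probe was low on D replicate 1 (10.43) and D + P replicate 1 (10.66) against 11.94 to 12.61 elsewhere, and another Hspa4 probe did not show this (11.28 on each). Hspa4 was singled out after its values were seen. Hspa2, Hspa9 and Hspa14 differed by less than 1 in each pairwise contrast and had no unadjusted p under 0.05.

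Of the Hsp90 genes, the inducible Hsp90aa1 read 11.21, 12.40 and 12.32 in C, 12.85, 13.04 and 12.95 in C + P, 11.78, 11.44 and 12.38 in D and 12.16, 12.35 and 12.08 in D + P. All 3 C + P arrays were above all 9 others, and the C arrays were spread over more than 1 log2 unit because replicate 1 was low. The change was 0.97 (SE 0.32, 95% interval 0.27 to 1.67, adjusted p = 0.997) in C + P versus C, or 0.585 without C replicate 1, and -0.75 (SE 0.32, adjusted p = 0.644) in D + P versus C + P. A separate probe for Hsp90aa1 read 11.34, 11.48 and 11.28 in C, 11.83, 11.82 and 11.75 in C + P, 11.81, 11.45 and 11.60 in D and 11.64, 11.50 and 11.49 in D + P. It did not show the low C array and gave 0.43 (SE 0.14) and -0.26 (SE 0.14). C + P was again highest by group mean, but D replicate 1 (11.81) lay above C + P replicate 3 (11.75). The constitutive Hsp90ab1 read 15.24, 14.90 and 14.94 in C, 15.14, 15.10 and 14.91 in C + P, 14.67, 14.75 and 14.71 in D and 15.15, 14.82 and 14.74 in D + P. The 3 D arrays were the lowest of all but D + P replicate 3 fell among them, and D was lower than C by -0.32 (SE 0.16, adjusted p = 0.498), or -0.21 without C replicate 1 and -0.105 with 75th percentile scaling, with 0.02 (SE 0.16) in C + P versus C. The mitochondrial Trap1 was low on 3 arrays that share a slide column, C + P replicate 1 (8.61), D replicate 1 (8.57) and D + P replicate 1 (9.03), and ran from 9.43 to 10.13 on the others.

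The 4 Hsp90 co-chaperones were measured, and all were below 0 in D + P versus C + P, where 49% of all probes were. There 1 of them, Stip1, reached an unadjusted p under 0.05, as 3.79% of all probes did on the lower side. Fkbp4, the immunophilin of steroid receptor complexes, read 13.30, 13.30 and 13.32 in C, 13.73, 13.32 and 13.35 in C + P, 11.95, 12.79 and 12.89 in D and 13.16, 12.65 and 13.09 in D + P. Every diabetic array was below every array without diabetes, and D replicate 1 was lowest. D was lower than C by -0.77 (SE 0.25, 95% interval -1.33 to -0.21, adjusted p = 0.355), and diabetes averaged over pargyline gave -0.63 (SE 0.18, adjusted p = 0.243). Without D replicate 1, the array with the most variable repeated spots, the change in D versus C was -0.47. Its 2 other probes gave -0.08 (SE 0.18) and -0.43 (SE 0.30) in D versus C, the second of them with D replicate 1 low. Ahsa1, which stimulates the Hsp90 ATPase, read 13.69, 13.68 and 13.79 in C, 14.24, 13.88 and 13.67 in C + P, 13.70, 13.52 and 13.54 in D and 14.04, 13.34 and 13.46 in D + P. Its groups overlapped, with -0.32 (SE 0.21) in D + P versus C + P. Stip1, which couples Hsp70 to Hsp90, was lower there by -0.41 (SE 0.19), and Chordc1 by -0.21 (SE 0.23).

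**Figure D5:**
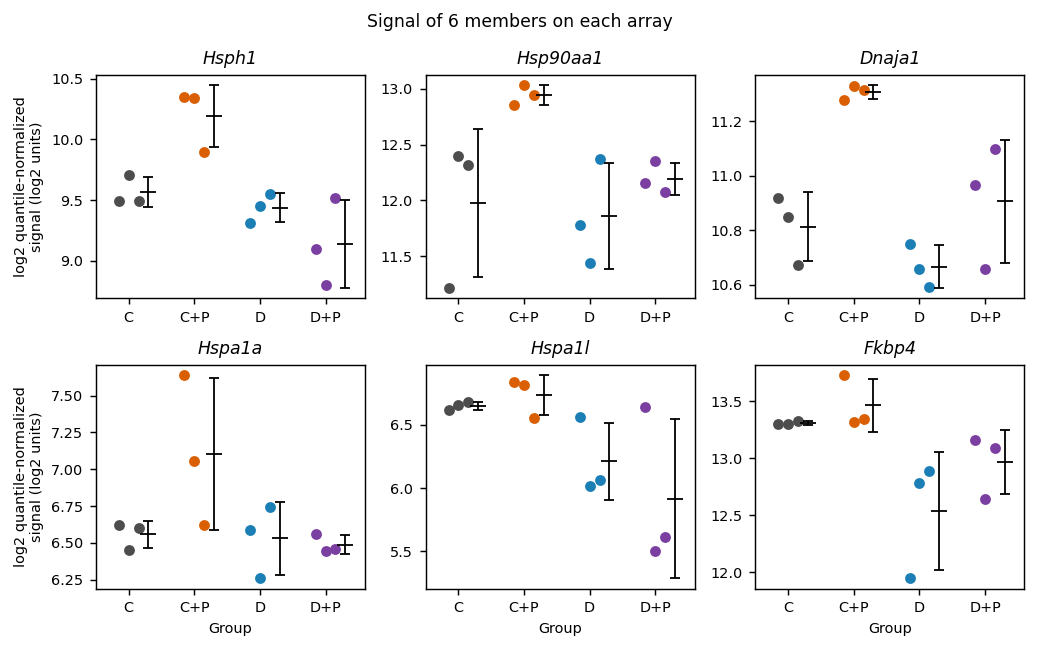
Log2 quantile-normalized signal (y axis) of Hsph1, Hsp90aa1, Dnaja1, Hspa1a, Hspa1l and Fkbp4 on each array by group (x axis), with the mean and SD of the 3 arrays as a bar beside the points. The C + P arrays are the 3 highest for Hsph1, Hsp90aa1 and Dnaja1, while the 6 diabetic arrays are the lowest for Fkbp4. Each panel has its own axis, which does not start at 0.

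Among the J-domain proteins, which deliver clients to Hsp70, Dnaja1 read 10.92, 10.85 and 10.67 in C, 11.28, 11.33 and 11.32 in C + P, 10.75, 10.66 and 10.59 in D and 10.96, 10.66 and 11.10 in D + P. The C + P arrays agreed to within 0.1 and were the 3 highest of the 12, and D had the lowest group mean. Dnaja1 was higher in C + P than in C by 0.50 (SE 0.15, adjusted p = 0.915), lower in D + P relative to C + P by -0.40 (SE 0.15, adjusted p = 0.608) and higher with pargyline averaged over diabetes by 0.37 (SE 0.11, adjusted p = 0.283). Dnajb1, the main inducible partner of Hsp70, was higher in C + P than in C by 0.39 (SE 0.18) and lower in D + P relative to C + P by -0.27 (SE 0.18). Dnaja4 read 12.00, 11.78 and 11.73 in C, 12.04, 11.87 and 11.81 in C + P, 12.66, 12.01 and 11.84 in D and 11.72, 11.54 and 11.94 in D + P. D replicate 1 was the one high array, and the change of -0.44 (SE 0.22, adjusted p = 0.405) in D + P versus D was the one with the lowest p among members in that contrast. It was -0.19 without D replicate 1, and the mean of its 2 probes gave -0.002. Dnajb6, which keeps polyglutamine proteins soluble, read 11.82, 11.79 and 11.76 in C, 11.80, 11.97 and 11.82 in C + P, 12.16, 11.88 and 12.08 in D and 11.88, 11.84 and 11.99 in D + P. Its D arrays were all above the C arrays, by 0.25 (SE 0.14, adjusted p = 0.516), but the mean of its 5 probes gave -0.05. Dnajb5 was lower in D + P relative to C + P by -0.46 (SE 0.18), and a dimmer Dnajb4 probe had the lowest adjusted p of all 75 probes for diabetes averaged over pargyline (-0.54, SE 0.12, adjusted p = 0.141), while the brightest Dnajb4 probe gave -0.24 (SE 0.20) in that contrast.

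The small heat-shock proteins were all below 0 in D + P versus C + P, 7 of 7, with 1 at an unadjusted p under 0.05, where 49% of all probes were below 0 and 3.79% reached that p on the lower side. That was Cryab, the abundant alpha-crystallin of heart muscle, at -0.35 (SE 0.14, adjusted p = 0.638). Hspb1, which caps actin filaments and is a classical heat-shock protein, gave -0.53 (SE 0.27), and D + P replicate 2 alone was low at 13.90 against 14.77 to 15.39 on the other arrays. Without that array the change was -0.16. Hspb7, a sarcomere-associated member and the brightest probe of the class, read 16.77, 16.68 and 16.58 in C, 16.84, 16.80 and 16.57 in C + P, 17.08, 16.73 and 16.78 in D and 16.80, 16.46 and 16.83 in D + P. Its groups overlapped throughout, with 0.19 (SE 0.17) in D versus C and -0.04 (SE 0.17) in D + P versus C + P. Hspb2, Hspb3, Hspb6 and Hspb8 had no unadjusted p under 0.05.

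Among the chaperonin genes Hspd1, the mitochondrial Hsp60, read 13.16, 13.39 and 13.15 in C, 13.52, 13.21 and 13.13 in C + P, 12.28, 13.43 and 13.19 in D and 12.87, 13.09 and 13.38 in D + P. D replicate 1 was the low array and the groups overlapped, with -0.17 (SE 0.28) in D + P versus C + P and 0.05 (SE 0.28) in C + P versus C. Its lid Hspe1, from the shared promoter shown above, gave -0.22 (SE 0.14) and 0.18 (SE 0.14), and its D + P arrays (12.29 to 12.50) lay wholly below its C + P arrays (12.52 to 12.74). Cct2, a subunit of the cytosolic chaperonin TRiC, read 11.16, 10.99 and 10.90 in C, 11.52, 11.42 and 11.06 in C + P, 11.22, 11.39 and 11.24 in D and 11.30, 11.27 and 11.96 in D + P. D + P replicate 3 was highest, and pargyline averaged over diabetes gave 0.27 (SE 0.15, adjusted p = 0.575), or 0.16 without that array.

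Bag proteins release nucleotide from Hsp70, and Bag3 with Hspb8 directs damaged sarcomere proteins to autophagy. Bag3 read 14.25, 13.84 and 13.92 in C, 14.20, 14.05 and 13.70 in C + P, 13.85, 13.85 and 14.05 in D and 13.94, 13.36 and 14.53 in D + P. Its groups overlapped and it was the inducible member with the smallest change in D + P versus C + P, at -0.04 (SE 0.27, 95% interval -0.63 to 0.55). Bag2 read 9.47, 9.12 and 9.23 in C, 9.55, 9.19 and 8.97 in C + P, 9.45, 9.59 and 9.56 in D and 9.17, 9.12 and 9.48 in D + P on its brightest probe. It gave -0.28 (SE 0.18) in D + P versus D, whereas its dimmer probe gave 0.87 (SE 0.20, adjusted p = 0.176) in the same contrast. Bag1 was at 10.83 on D + P replicate 3 against 13.50 to 14.62 on the other 11 arrays. It was singled out for that array after its values were seen, and its change of -0.98 in D + P versus D had an SE of 0.75 and was 0.18 without that array.

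The 2 heat-shock factors themselves had no unadjusted p under 0.05 in any contrast. Hsf1, the factor that drives the inducible genes, read 9.50, 9.38 and 9.44 in C, 9.70, 9.62 and 9.70 in C + P, 9.34, 9.39 and 9.40 in D and 9.48, 9.47 and 9.42 in D + P. Its C + P arrays were the highest 3 of the 12, by 0.23 (SE 0.12, adjusted p = 1) over C and with -0.22 (SE 0.12, adjusted p = 0.722) in D + P versus C + P. These arrays measure Hsf1 RNA and not its activity, which is set on the protein. Hsf2 gave 0.17 (SE 0.19) and -0.23 (SE 0.19).

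Members with several probes did not always move alike. Of 35 further tested probes of 19 genes, 13 had the opposite sign to the brightest probe in D + P versus C + P, 15 in C + P versus C and in D versus C, and 24 in D + P versus D. The spread within groups was modest, with a median SD of 0.25 for the 40 members (0.04 to 1.05) and 0.34 for all probes. Quality differed between arrays, since the median variation of repeated spots was 23.4% on D replicate 1 and 13.3% to 16.6% on the first C + P array and the first and the third D + P array, against 3.92% to 10.5% on the rest. The first arrays of C + P, D and D + P lay in the first column of their slide, and no C array did. C + P replicate 1, one of them, was also the array on which the inducible genes were highest.

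Of 43 further chaperone genes 42 were tested, and 0 passed in any contrast by limma. In D + P versus C + P 24 of the 42 were below 0 (57.1%, against 49% of all probes), with a median of -0.04. An unadjusted p under 0.05 was reached by 1 (2.38%, against 7.46% of all probes). This was Grpel2, a nucleotide exchange factor of mitochondrial Hsp70 (-0.50, SE 0.21, adjusted p = 0.642). In C + P versus C 0 of the 42 reached that p, where 4.43% of all probes did. Unc45b, the myosin chaperone, gave -0.55 (SE 0.21, adjusted p = 0.425) in D versus C. Hspb11 and Hspa12b gave -0.40 (SE 0.15) and 0.48 (SE 0.18) in D + P versus D, and all 7 further TRiC subunits were below 0 in D versus C with 0 at an unadjusted p under 0.05.

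Immediate early genes, which cells switch on within minutes of a stimulus, peaked in C + P by group mean in 16 of the 19 tested (84.2%), against 24.5% of all tested probes. Of 20 listed genes 19 were tested, and 6 passed as higher in C + P versus C and as lower in D + P versus C + P by limma, which were Egr1, Egr2, Fos, Fosb, Ier2 and Nr4a1 in both. Fos was higher in C + P than in C by 4.42 (SE 0.47, adjusted p = 0.0109), Nr4a1 by 3.82 (SE 0.30, adjusted p = 0.000797) and Ier2 by 1.99 (SE 0.15, adjusted p = 0.000797), and the median of the 19 was 1.35. In D + P versus C + P their median was -1.63. The log2 of their summed signal was 15.20 to 15.60 on the C + P arrays, 14.17 to 14.36 in C, 14.05 to 14.30 in D and 13.93 to 14.31 in D + P. The part of this response in the values of the chaperones was not tested, and the labels do not tell whether hearts were collected in an order that followed the groups. Macrophage markers were lower in D + P relative to C + P in 7 of 7 genes (49% of all probes), 3 of them at an unadjusted p under 0.05 (3.79% on the lower side). Their summed log2 signals were 14.08 to 14.76 in C + P and 13.69 to 13.87 in D + P, and their part was not tested either. All 7 macrophage markers were also below 0 in D versus C (51.1% of all probes). For diabetes averaged over pargyline 5 of 7 were lower at an unadjusted p under 0.05 (5.46% of all probes), with a median of -0.43. Fibroblast markers had summed log2 signals of 15.46 to 15.53 in C + P and 15.60 to 15.82 in D + P, which do not overlap, with 3 of 7 genes higher and 4 lower. Of 6 endothelial markers 5 read higher in D + P relative to C + P, 1 at an unadjusted p under 0.05, with summed log2 signals of 13.47 to 13.81 in C + P and 13.69 to 14.02 in D + P, which overlap. The 3 atrial markers tested of 4 had summed log2 signals of 13.44 to 13.96 in C, 14.28 to 14.76 in C + P, 15.15 to 15.52 in D and 14.57 to 15.57 in D + P, so that C + P lay wholly above C. All 3 were above 0 in C + P versus C (0.08 to 0.80), but the genes disagreed elsewhere. In D versus C 2 were above 0 and 1 below (-0.25 to 1.67), and in D + P versus C + P 1 was above and 2 below (-1.04 to 0.77). Of 5 red cell markers 4 were lower in D + P relative to C + P (-1.94 to 0.18), with the lowest adjusted p by limma for Slc4a1 (0.0823). In C + P versus C 3 were above 0 and 2 below (-0.03 to 1.73), again with the lowest adjusted p for Slc4a1 (0.186). Their summed signals overlapped between all groups. The part of these lists was not tested. In bulk RNA fewer cells of a type and less RNA per cell cannot be told apart. Cardiomyocyte markers were present on every array, with a summed log2 signal between 19.42 and 19.79 and all 4 groups overlapping. Of 5 listed fat-cell genes, Adipoq, Plin1 and Ucp1 were well above background on 0 arrays, while Cfd and Retn were so on at least 1.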

How the data were processed

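From Cy3-labelled total RNA the authors deposited scanner files with spot intensity on a linear scale, background-subtracted and detrended within each array by Feature Extraction (12.0.0.7, per the file headers). They also deposited a table of quantile-normalised intensity, used here as an alternative. Deposited intensities were log2 transformed and quantile normalised between the 12 arrays. Control spots were left out, outlier spots set to missing and repeated spots averaged. Probes entered the tests if flagged as positive and significant in no less than 50% of the arrays in all 4 groups.

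The linear model was limma 3.58.1 under R 4.3.3 with data.table (version 1.17.8) (1 mean per group, 12 arrays, 8 residual degrees of freedom, two-sided, Benjamini-Hochberg over 30859 probes, threshold 0.05), and the fit was checked on simulated data. With 3 arrays a side an exact permutation test reaches p = 0.1 at best. Array number limits the precision, and p-values measure the spread between these samples. Promoter windows and figures used Python 3.11.15, pandas 2.3.3 and matplotlib 3.10.9.

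The members and gene lists were chosen with earlier results of these data known. Array values are given for members that passed (0), for the 4 with the lowest unadjusted p in each contrast and for the brightest of each of 8 role groups, and for others where stated. Of the 83 member probes 68 matched a RefSeq accession, all 68 under the same symbol. Alternatives were another scaling, background correction, the authors' table, filters on dim probes, dim values as missing, array weights, the methods' t-test, a replicate block, slide column, the mean of all probes and leaving out each array.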

Additional observations from a re-analysis of the deposited data

How the results depend on the processing

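No member passed in the main analysis, and this held under the alternatives run except for 3 cases. With array weights 1 member (Hsph1, -1.18, adjusted p = 0.0434) passed in D + P versus C + P and 2 for diabetes averaged over pargyline (Hspa1l, -0.785, adjusted p = 0.0347, and Hsph1, -0.655, adjusted p = 0.0466). That setting raised calls over the whole array too, from 14 to 69 of 30859 probes and from 33 to 397. Leaving out 1 array at a time gave 0 to 1 members for diabetes averaged over pargyline, the 1 being Hspa1l (-0.809, adjusted p = 0.0441) without D + P replicate 1, where 116 probes passed in place of 33.

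The median log2 change of the 40 members moved by more than the spread between arrays in 4 settings. With 75th percentile scaling it was 0.0567 in D versus C, -0.147 in D + P versus D and -0.343 in the interaction. With normexp background correction it was 0.022 in D versus C. With dim values set to missing it was -0.247 in D versus C, -0.224 for diabetes averaged over pargyline and -0.0422 in the interaction, while the median of all probes moved to -0.265, -0.146 and 0.233. Leaving out 1 array at a time gave -0.304 to -0.144 in the interaction, the lowest without C + P replicate 3, which is the fourth setting. It also gave 0.0192 to 0.176 in C + P versus C, -0.263 to -0.132 in D + P versus C + P and -0.117 to 0.0173 in D + P versus D. The cause was not tested.

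Taking the mean of all probes of a gene turned the sign of Bag2 in D + P versus D (0.296), Dnajb6 in D versus C (-0.0503), Hspa4l in the interaction (-0.157) and Hsph1 in the interaction (0.0803), each beside brightest-probe values of opposite sign.

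Leaving out D + P replicate 2 took the members with an unadjusted p under 0.05 in D + P versus C + P from 8 to 2. For diabetes averaged over pargyline the count went from 6 to 3 without C + P replicate 2 or D + P replicate 2, and in C + P versus C from 7 to 3 without C + P replicate 1 or any 1 C array. Array weights raised it from 6 to 11 for diabetes averaged over pargyline (5759 of all probes in place of 3516), from 7 to 11 in C + P versus C (4357 in place of 1368) and from 1 to 4 in D versus C (5847 in place of 3332). Over the alternatives run it was 0 to 5 in the interaction (1 in the main analysis), 2 to 5 for pargyline averaged over diabetes (2) and 0 to 2 in D + P versus D (0). Outside array weights, shares of all probes are not given for these counts. A change particular to the members therefore cannot be told from one over the whole array.

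The replicate numbers of the labels did not pair the arrays, since 4 of 18 correlations of same-numbered deviations were over 0.1 (-0.204 to 0.2). With a replicate block 0 members passed in each contrast. The count with an unadjusted p under 0.05 was 4 in C + P versus C in place of 7 (1384 of all probes in place of 1368). The median change in D + P versus C + P was -0.209 as without it, but a block balanced over the groups can hardly move it. Slide as a random block could not be estimated, because each group lies on 1 slide. Slide as a fixed block with a common diabetes effect, chosen after seeing the data, gave 0 members and a median of -0.125. By design that median equals the one for diabetes averaged over pargyline, so it is no check. The methods' t-test covers pairwise contrasts only. With the filter for signal well above background 39 members were tested. Signal over background limits Hspa1b and the dimmer probes most.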
